A study of Mus musculus with 48 samples.

Results

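Syndecans and glypicans are the main families of heparan sulfate proteoglycans held at the cell surface, and 8 of their genes were followed here through single cells of the mouse inner cell mass (ICM). The syndecans Sdc1, Sdc2, Sdc3 and Sdc4 and the glypicans Gpc1, Gpc3, Gpc4 and Gpc6 were taken by gene symbol from a table of 49671 genes. The remaining glypicans, Gpc2 and Gpc5, were looked up beside them. Each of the 8 symbols matched 1 row of the table through its Ensembl gene identifier.

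A syndecan is a core protein that crosses the membrane once and carries heparan sulfate chains, and sometimes chondroitin sulfate, near its outer end, while its short cytoplasmic tail binds PDZ proteins and the actin cytoskeleton. A glypican carries its chains close to the membrane and is held there by a glycosylphosphatidylinositol anchor. Heparan sulfate binds fibroblast growth factors together with their receptors, and FGF4 signalling through ERK directs ICM cells towards primitive endoderm. The amount and the kind of core protein set where on a cell such chains can stand, whereas the enzymes that build and trim the chains set their sulfation.

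The study asked how epiblast (EPI) and primitive endoderm (PrE) precursors sort from each other in the blastocyst. At stage E3.75, 48 cells were taken from the ICMs of 3 embryos from intercrosses of a line with histone H2B-GFP targeted to the Pdgfra locus and C57BL/6JxCBA/J F1 hybrids, after removal of the trophectoderm by immunosurgery, and were sequenced by Smart-seq2, which amplifies whole cDNAs and tags no molecules. Per the study's methods all embryos were Pdgfra H2B-GFP/+ and were chosen for a mixed pattern of GFP-positive cells in the ICM. The cells are labelled wild type and none was treated, and because the labels do not give the embryo of a cell, the 48 cells are 1 sample without replicates. The cells were grouped by the branches of the study's own dendrogram, read by eye, with 25 cells on the branch of epiblast precursors (pEPI) and 23 on that of primitive endoderm precursors (pPrE). Because the dendrogram was itself built from these cells, a difference between them was not tested, no p-value is given, and an SD describes the spread between cells. Fluorescence of the reporter in each cell was not used here.

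Total counts per cell ranged from 1718970 to 7342785, with a median of 3751329 in pEPI and 4251373 in pPrE cells. Values are FPKM, that is, the counts of a gene scaled by the length of its exons and by a library size set by the median of ratios, so that levels of different genes can be compared. A ratio between the branches is the log2 of mean FPKM in pPrE over mean FPKM in pEPI. The interval beside it has the width of the exact 95% interval of the summed counts, with reads taken as independent. It covers the counting error of reads only, not copies made in amplification or differences between cells or embryos. Markers describe the branches and are no check of their names. The dendrogram was built from these cells, and the study coloured it by the ratio of Nanog to Gata6. Of 10 pPrE markers, 10, among them Gata6 and Sox17, had a mean at least 2-fold higher in pPrE. Of 8 pEPI markers, 5 (Nanog, Sox2, Fgf4, Klf2 and Prdm14) were at least 2-fold higher in pEPI. Among all genes with a mean of at least 1 FPKM, 6.20% were that much higher in pPrE and 9.03% in pEPI. The other 3 pEPI markers lay between, with log2 ratios of 0.17 for Bmp4, -0.42 for Gdf3 and -0.86 for Tdgf1. Of 12 trophectoderm markers, 7 had a mean of at least 1 FPKM. Their summed level was 16 to 219 FPKM in pEPI and 20.5 to 132 FPKM in pPrE cells, and the regulator Cdx2 was counted in 2 pEPI cells and 1 pPrE cell. The Spearman correlation of the summed trophectoderm list with Sdc4 was -0.13 over the 48 cells, 0.09 among pEPI and 0.34 among pPrE cells. The list holds genes of both branches, with log2 ratios of 3.28 for Fgfr2, -3.85 for Tfap2c and -1.17 for Krt18. Krt8 and Tead4 had its highest means, 34.3 and 18.2 FPKM over all cells. The summed level thus mixes such genes, and the part of trophectoderm in the results was not tested. Of 6 blood and immune markers, 5 were not counted in any cell and Hba-a2 was counted in 1 cell of each branch.

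Sdc4 was the only one of the 8 core proteins with a high level in this ICM, and it was about 4-fold higher in pPrE. A mean of at least 1 FPKM over all 48 cells was reached by 4 of the 8 genes, Sdc4, Gpc4, Sdc1 and Gpc3. Of these 4 genes, 1 (Sdc4) had a mean at least 2-fold higher in pPrE, against 6.20% of the 10880 genes with that minimum (675 genes). Of the same 4, 0 were at least 2-fold higher in pEPI, against 9.03% (982 genes). The branches were built from cells that include these genes' own counts, so these figures describe the cells and carry no test.

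**Figure D1:**
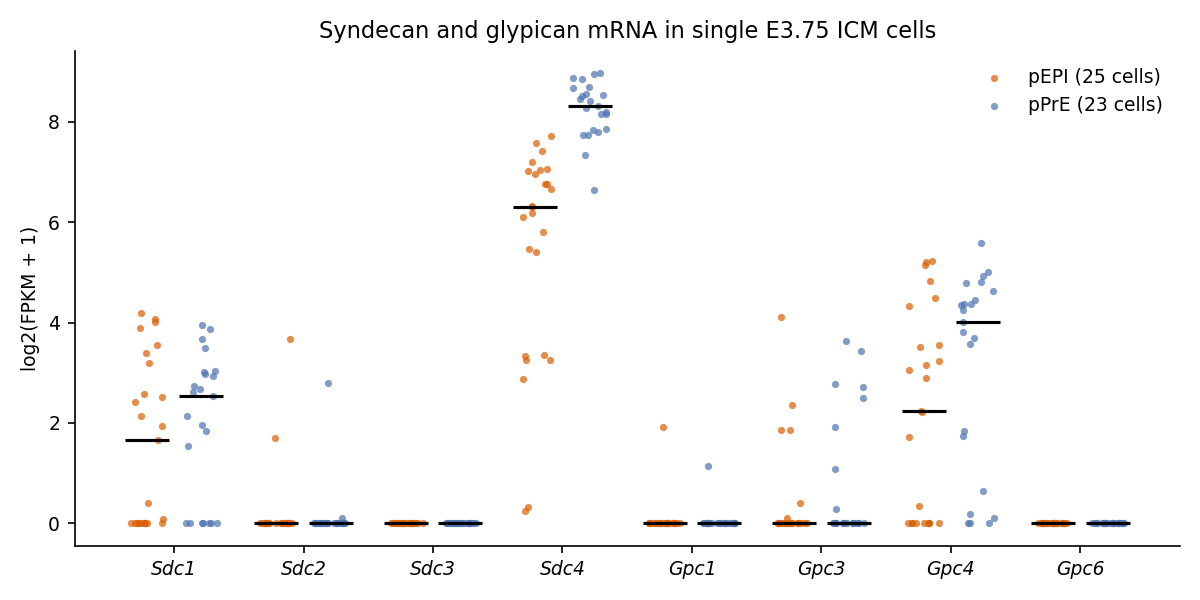
FPKM of each of the 8 core protein genes in every cell, on an axis of log2(FPKM + 1); points are cells, 25 of pEPI and 23 of pPrE, and bars are the branch medians. Sdc4 fills the range up to 501 FPKM, Gpc4 and Sdc1 stay below 50 FPKM, and Sdc3 and Gpc6 lie at 0 in every cell.

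Among the syndecans, Sdc4 is the member found at focal adhesions, where its tail binds protein kinase C alpha. The gene (ENSMUSG00000017009) spans chr2:164424247-164443887 on the minus strand of GRCm38, with 2547 bases of exons in all. The bases just before its RefSeq start are shown because, of the core protein genes with a mean of at least 1 FPKM, this one had the largest ratio between the branches. The sequence is written on the minus strand, from chr2:164443189-164443438 of GRCm38.p6, and ends where the RefSeq transcript begins. It lies outside every annotated exon, in an intron of a longer processed transcript of the gene in GENCODE. Capitals mark GGGCGG, the letters bound by the Sp1 family, and TATAA, the core of a TATA box.

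Sdc4 upstream: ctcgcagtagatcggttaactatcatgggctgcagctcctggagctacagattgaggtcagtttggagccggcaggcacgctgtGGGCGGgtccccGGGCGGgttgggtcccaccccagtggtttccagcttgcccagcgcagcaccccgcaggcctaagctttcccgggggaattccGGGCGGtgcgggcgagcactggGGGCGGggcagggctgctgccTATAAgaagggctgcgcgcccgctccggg

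GGGCGG stood 4 times in this stretch, and TATAA stood once, beginning 29 bases before the start. Searched on both strands, GGGCGG occurs in 35.6% and TATAA in 24.9% of the 32817 RefSeq windows of 300 bases around mouse gene starts. Neither GATAA, the core of GATA sites, nor ACAAT, the core of SOX sites, was among these letters, and 25.4% and 31% of all windows hold them. For comparison, the longest stretch of the RefSeq window of Sdc1 that lies outside exons, chr12:8771182-8771322 on the plus strand of GRCm38.p6, holds GGGCGG (capitals) 2 times.

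Sdc1 upstream: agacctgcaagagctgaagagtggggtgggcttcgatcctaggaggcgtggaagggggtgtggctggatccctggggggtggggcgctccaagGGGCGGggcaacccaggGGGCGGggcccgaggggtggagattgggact

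Both stretches thus hold the same short G-rich letters. The Sdc1 stretch ends 74 bases before the RefSeq start, short of the place where TATAA stood in Sdc4. Over the whole window of 300 bases, Sdc1 held TATAA 2 times and GGGCGG 3 times, and Sdc4 held them 1 and 4 times. A match of this kind is a description of the window, not a site. RefSeq windows were matched for 5 of the 8 genes, Sdc1, Sdc3, Sdc4, Gpc3 and Gpc4.

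Sdc4 was counted in all 48 cells. In pEPI its level had a lowest value of 0.189, a median of 78.5 and a highest value of 210 FPKM. In pPrE the lowest was 99.2, the median 320 and the highest 501 FPKM. Every pPrE cell therefore stood above the pEPI median, and every pEPI cell stood below the pPrE median, but the ranges overlapped. The overlap was made by 11 pEPI cells above the lowest pPrE cell and by 2 pPrE cells below the highest pEPI cell. The mean was 81.0 ± 62.9 FPKM (SD, n = 25 cells) in pEPI and 322 ± 109 FPKM (SD, n = 23 cells) in pPrE. The log2 ratio was 1.99 (1.97 to 2.02), or 3.98-fold, and the difference of 241 FPKM was larger than the SDs of the branches added together, 172 FPKM. When each pPrE cell was set against each pEPI cell, it had more Sdc4 in 97.6% of these pairs.

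The rank of Sdc4 among all genes shows how abundant this transcript was. Its mean over the 48 cells was 197 FPKM, and 284 other genes of the 49412 with an exon length stood at or above it. Of these 284, only Fam25c and Aqp8 were also at least 2-fold higher in pPrE, with log2 ratios of 1.13 and 2.63. Counted by ratio alone, 242 of the 10880 genes with a mean of at least 1 FPKM, Sdc4 included, had a log2 ratio as high as that of Sdc4. The median log2 ratio of the 10880 genes was 0.00.

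The spread of Sdc4 was unlike in the branches. The coefficient of variation (SD over mean) was 0.777 in pEPI and 0.338 in pPrE. Among the pEPI cells, 7 lay under 10 FPKM, the highest of them at 9.19 FPKM, and the next cell stood at 41.2 FPKM, while no pPrE cell lay under 10 FPKM. Even so, at least 10 CPM of Sdc4 (counts scaled to a total of 1000000 in each cell) were found in 23 of 25 pEPI cells (92%, exact binomial 95% interval 74.0% to 99.0%) and in 23 of 23 pPrE cells. A cell of the pEPI branch thus usually held Sdc4 transcripts, at a level that ranged from near 0 to the lower end of the pPrE range.

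Within pEPI, the level of Sdc4 moved with the lineage genes. Its Spearman correlation with Nanog, the epiblast regulator, was -0.81 over the 48 cells, -0.76 among the 25 pEPI cells and -0.18 among the 23 pPrE cells. The correlation with Pdgfra, the receptor whose locus carries the reporter, was 0.68 over all cells, 0.72 among pEPI and 0.07 among pPrE cells. With Gata6, which begins the primitive endoderm programme, it was 0.65 over all, 0.55 among pEPI and 0.15 among pPrE cells. Sdc4 was thus lower in the pEPI cells with more Nanog and less Pdgfra and Gata6, and followed these genes little among pPrE cells. Grouped anew by the sign of the first principal component or by Ward's hierarchical clusters, 45 and 39 of the 48 cells kept their branch. All cells that moved were pEPI cells, and how far they carry this slope was not tested. Sdc4 in pEPI cells also differed with Y-linked counts (below), and the slope was not separated from that split. For Klf2 the correlation was -0.73 over all cells but -0.24 and -0.04 within the branches, and for Gata4 it was 0.78 over all but 0.24 and 0.29 within them, so these values rest mostly on the step between the branches. The same holds for Sox17, at 0.72 over all cells and 0.37 and 0.25 within pEPI and pPrE. The points of these correlations share their library, and the branches were made with such genes, so no p is given. With the total count of a cell, Sdc4 had a Spearman correlation of 0.20 over all cells and of -0.03 in pEPI and 0.35 in pPrE.

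**Figure D2:**
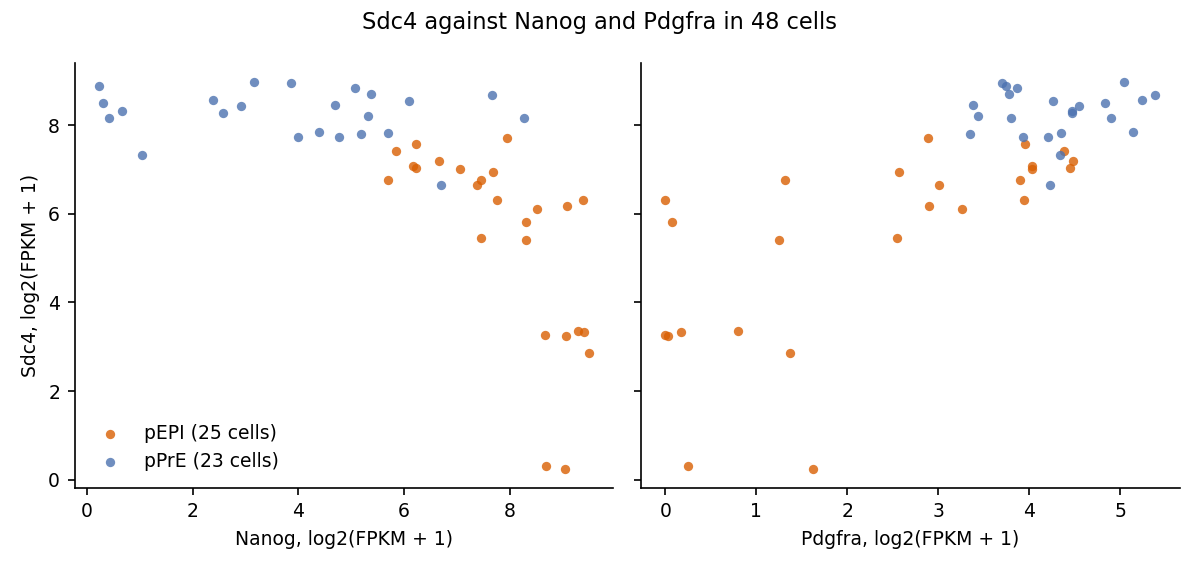
Sdc4 in each of the 48 cells against Nanog and against Pdgfra, with all axes in log2(FPKM + 1) and points coloured by branch. Among the 25 pEPI cells Sdc4 is lower where Nanog is higher and Pdgfra lower, while the 23 pPrE cells sit between 99.2 and 501 FPKM of Sdc4 with little slope.

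Of 6082 other genes with a mean of at least 5 FPKM, those most like Sdc4 over the 48 cells were Fgfr2, Sparc and Aqp8, by Spearman correlation of FPKM. Fgfr2, a receptor for fibroblast growth factors, reached 0.84 over all cells, with 0.52 among pEPI and 0.54 among pPrE cells. Sparc, a matrix protein that binds collagen, reached 0.82, with 0.31 and 0.45 within the branches. Aqp8, a water channel, also reached 0.82, with 0.55 and 0.24. These are genes of the pPrE side, and the values within the branches were lower than those over all cells.

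Sdc1, the syndecan of epithelia and plasma cells (ENSMUSG00000020592, chr12:8771323-8793715, plus strand, 3809 bases of exons), had a similar mean on both branches. In pEPI it ranged from 0 to 17.2 FPKM with a median of 2.16 FPKM, and in pPrE from 0 to 14.5 FPKM with a median of 4.79 FPKM. The means were 4.53 ± 5.83 FPKM (SD, n = 25 cells) and 4.77 ± 4.52 FPKM (SD, n = 23 cells). The log2 ratio was 0.08 (-0.02 to 0.17), far inside the spread between cells, and the pPrE cell was higher in 55% of pairs. Counts were found in 15 of 25 pEPI cells (60%, interval 38.7% to 78.9%) and 16 of 23 pPrE cells (69.6%, interval 47.1% to 86.8%). The cells were thus split on both branches between those with some Sdc1 and those with none counted. At least 10 CPM were found in 12 pEPI and 15 pPrE cells, and in 12 and 14 cells after every cell had been thinned to the total of the shallowest, which left out no cell.

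Sdc2, a syndecan of mesenchymal cells (ENSMUSG00000022261, chr15:32920723-33034935, plus strand), was counted in only 4 of the 48 cells. The pEPI cells F8 and C4 held 135 and 45 counts, and the pPrE cells F7 and D2 held 153 counts and 1 count. Its mean was 0.561 FPKM in pEPI and 0.263 FPKM in pPrE, below the minimum of 1 FPKM, so its ratio was not read. In the pEPI cell F8, Sdc2 was the core protein with the highest level.

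Sdc3, the large syndecan of the nervous system (ENSMUSG00000025743, chr4:130792537-130826319, plus strand), had 0 counts in all 48 cells. A count of 0 allows a share of up to 6.25% of cells with a read (3 of 48 cells), and 3 counts spread over the cells would be a mean of 0.00252 FPKM. The 4 syndecans thus ran from an abundant transcript to no count, in the order Sdc4, Sdc1, Sdc2 and Sdc3 on both branches.

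Of the glypicans, Gpc4 had the highest level and was counted in most cells. The gene (ENSMUSG00000031119, 2651 bases of exons) lies at chrX:52053021-52165252 on the minus strand. It ranged from 0 to 36.3 FPKM with a median of 3.73 FPKM in pEPI, and from 0 to 47.3 FPKM with a median of 15.2 FPKM in pPrE. The means were 9.42 ± 12.3 FPKM (SD, n = 25 cells) and 14.7 ± 12.9 FPKM (SD, n = 23 cells), a difference smaller than either SD. The log2 ratio of 0.65 (0.57 to 0.72) fell short of a fold of 2, and the log2 ratio of the medians was 2.02. The pPrE cell was higher in 64.4% of pairs, so the branches overlapped through nearly their whole range. Gpc4 was counted in 16 of 25 pEPI cells (64%, interval 42.5% to 82.0%) and 20 of 23 pPrE cells (87%, interval 66.4% to 97.2%). At 10 CPM the numbers were 12 and 15 cells, and after thinning 13 and 15.

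Gpc3, which binds Hedgehog and Wnt proteins and whose loss causes overgrowth, is the X-linked neighbour of Gpc4 (ENSMUSG00000055653, chrX:52272426-52613950, minus strand, 2690 bases of exons). It was counted in 6 pEPI and 8 pPrE cells, and reached 10 CPM in 2 and 5. The means were 1.04 ± 3.33 FPKM (SD, n = 25 cells) and 1.80 ± 3.35 FPKM (SD, n = 23 cells), with a log2 ratio of 0.79 (0.59 to 1.00). Single cells carried these means: the pEPI cell A4 held 68.0% of the pEPI counts, and the pPrE cell C6 held 30.7% of the pPrE counts. Leaving out A4 gave a log2 ratio of 2.14, leaving out well letter A gave 2.43, and leaving out letter C gave -0.25. The direction for Gpc3 was thus set by a few cells. The antisense genes A630012P03Rik and Gm14582 overlap it, with 20 and 45 counts in all cells, and because the method keeps no strand, reads in the shared stretches cannot be told apart from those of Gpc3.

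Gpc1, a glypican of the developing brain (ENSMUSG00000034220, chr1:92831645-92860779, plus strand), was counted in 2 cells, with 54 counts in the pEPI cell A6 and 17 counts in the pPrE cell D3. Gpc6 (ENSMUSG00000058571, chr14:116925315-117976544, plus strand) had 0 counts in all 48 cells, and 3 counts over these cells would be a mean of 0.00234 FPKM. Of the glypicans outside the 8 genes, Gpc2 was counted in 5 cells, with a mean of 0.122 FPKM in pEPI and 0.0716 FPKM in pPrE, and Gpc5 was not counted. The glypican transcripts of these cells were therefore mainly those of Gpc4 on both branches.

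Set in order of mean level, the genes ran Sdc4, Gpc4, Sdc1, Gpc3, Sdc2 and Gpc1 on both branches. Sdc4 was above Gpc4 in 23 of 25 pEPI and 23 of 23 pPrE cells. Gpc4 was above Sdc1 in 13 pEPI cells and below it in 9, with a mean difference of 4.89 ± 12.9 FPKM (SD, n = 25 cells). In pPrE it was above Sdc1 in 17 cells and below it in 5, with a mean difference of 9.97 ± 14.7 FPKM (SD, n = 23 cells). Sdc1 was above Gpc3 in 14 pEPI and 15 pPrE cells and below it in 3 and 5. Only the step from Sdc4 to Gpc4 was thus larger than the spread of the difference between cells. That step was 71.6 ± 63.0 FPKM (SD, n = 25 cells) in pEPI and 308 ± 108 FPKM (SD, n = 23 cells) in pPrE.

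The makeup of the core proteins followed from these levels. Sdc4 made up 83.8% of the summed mean FPKM of the 8 genes in pEPI and 93.7% in pPrE. Gpc4 made up 9.74% and 4.28%, Sdc1 4.69% and 1.39%, and Gpc3 1.07% and 0.522%. The summed level of all 8 genes was 96.6 ± 62.9 FPKM (SD, n = 25 cells) in pEPI and 344 ± 114 FPKM (SD, n = 23 cells) in pPrE. Without Sdc4, the other 7 genes summed to 15.7 ± 13.5 FPKM and 21.6 ± 12.5 FPKM, a difference smaller than either SD. The difference in summed core protein transcripts between the branches was therefore nearly all Sdc4.

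Single cells followed the same picture with exceptions in pEPI. Sdc4 had the highest level of the 8 genes in 23 of 23 pPrE cells and in 20 of 25 pEPI cells. In the other 5 pEPI cells the highest was Gpc4 in C3 and D4, Sdc1 in C7, Gpc3 in A4 and Sdc2 in F8. The share of Sdc4 in a cell's summed level ran from 0.882% to 97.9% in pEPI, with a median of 83.6%, and from 84.5% to 100% in pPrE, with a median of 94.0%. Of the 8 genes, 2 were counted in 11 pEPI and 3 pPrE cells, 3 were counted in 13 cells of each branch, and 4 were counted in 1 pEPI and 6 pPrE cells, while 1 pPrE cell held Sdc4 alone.

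**Figure D3:**
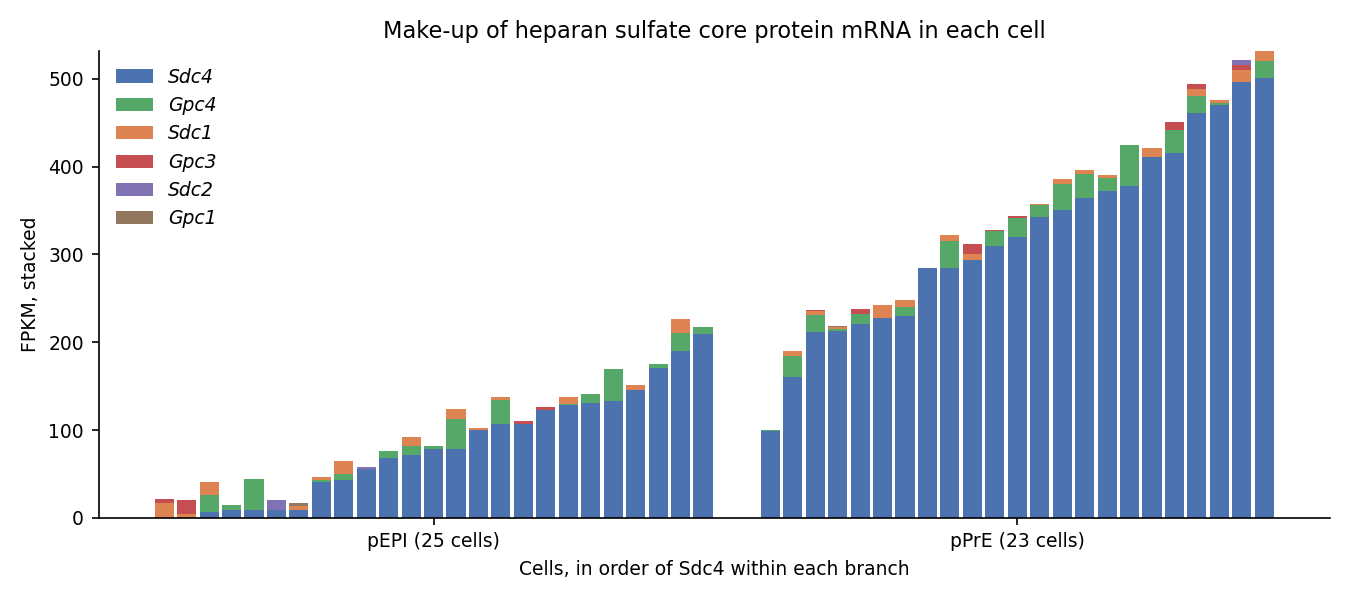
Summed FPKM of the 8 core protein genes in each cell, as stacked bars by gene (Sdc3 and Gpc6 are at 0), with cells in order of Sdc4 within pEPI and pPrE. Sdc4 makes up nearly all of every pPrE bar (84.5% to 100%), whereas in 5 of the 25 pEPI cells another core protein has the highest level.

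The core proteins followed each other little from cell to cell. Over the 48 cells, the highest Spearman correlation between any pair of the genes with a mean of at least 1 FPKM was 0.29, for Sdc4 with Gpc4, and the lowest was -0.14, for the neighbours Gpc3 and Gpc4. Within pEPI the lowest was -0.42, again for Gpc3 with Gpc4, which were counted together in 8 of the 48 cells. In counts this sparse, values of that size are no finding. The genes most like Gpc4 among those with a mean of at least 5 FPKM were Lsm5, Dusp12 and Prrc1, at 0.55, 0.53 and 0.51 over the 48 cells. For Sdc1 they were Eif4a1, Cops4 and Gnptg, at 0.50, 0.49 and 0.49, and for Gpc3 they were Cdc42se2, Nubp1 and Amn, at 0.48, 0.48 and 0.46. Over the 48 cells these values were below that of Sdc4 with Fgfr2, but within a branch some were above it, as for Gpc3 with Cdc42se2 (0.77 in pPrE), Sdc1 with Gnptg (0.64 in pPrE) and Gpc4 with Prrc1 (0.65 in pEPI).

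The 48 cells also fell into 29 with 242 to 1298 counts over 4 Y-linked genes and 19 with at most 1 such count. Those with Y-linked counts were 17 pEPI and 12 pPrE cells, and those without were 8 and 11. The labels give no sex, and in this split the sex of a cell cannot be told apart from its embryo. In cells with Y-linked counts, Sdc4 was 103 ± 60.1 FPKM (SD, n = 17 cells) in pEPI and 283 ± 92.6 FPKM (SD, n = 12 cells) in pPrE, which gave a log2 ratio of 1.46. In cells without them it was 34.2 ± 40.8 FPKM (SD, n = 8 cells) and 366 ± 113 FPKM (SD, n = 11 cells), a log2 ratio of 3.42, and the branches did not overlap, with 107 FPKM as the highest pEPI and 212 FPKM as the lowest pPrE value. Of the 7 pEPI cells under 10 FPKM of Sdc4, 5 were among the 8 without Y-linked counts and 2 among the 17 with them. Sdc4 was thus higher in pPrE on both sides of the split, by a larger ratio in the cells without Y-linked counts, and whether these ratios differ beyond the embryos was not tested.

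The X-linked glypicans behaved less evenly over this split. Gpc4 had a log2 ratio of 1.10 in cells with Y-linked counts (8.22 FPKM in pEPI and 17.7 FPKM in pPrE) and of -0.05 in those without (12 FPKM and 11.6 FPKM). Gpc3 had a log2 ratio of -1.70 with and 1.93 without Y-linked counts. With Y-linked counts its means were 1.11 ± 3.94 FPKM (SD, n = 17 cells) in pEPI and 0.341 ± 0.827 FPKM (SD, n = 12 cells) in pPrE. This pEPI mean was carried by the cell A4, at 16.2 FPKM, while the median was 0, so the reversal rests on that cell. Compared by level over both branches, Gpc4 was 0.967-fold in cells without Y-linked counts relative to cells with them, Gpc3 2.94-fold, Sdc4 1.27-fold and Sdc1 1.53-fold. Gpc3 was counted in 8 of the 19 cells without and 6 of the 29 with Y-linked counts. All 4 cells with Sdc2 were without Y-linked counts.

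**Figure D4:**
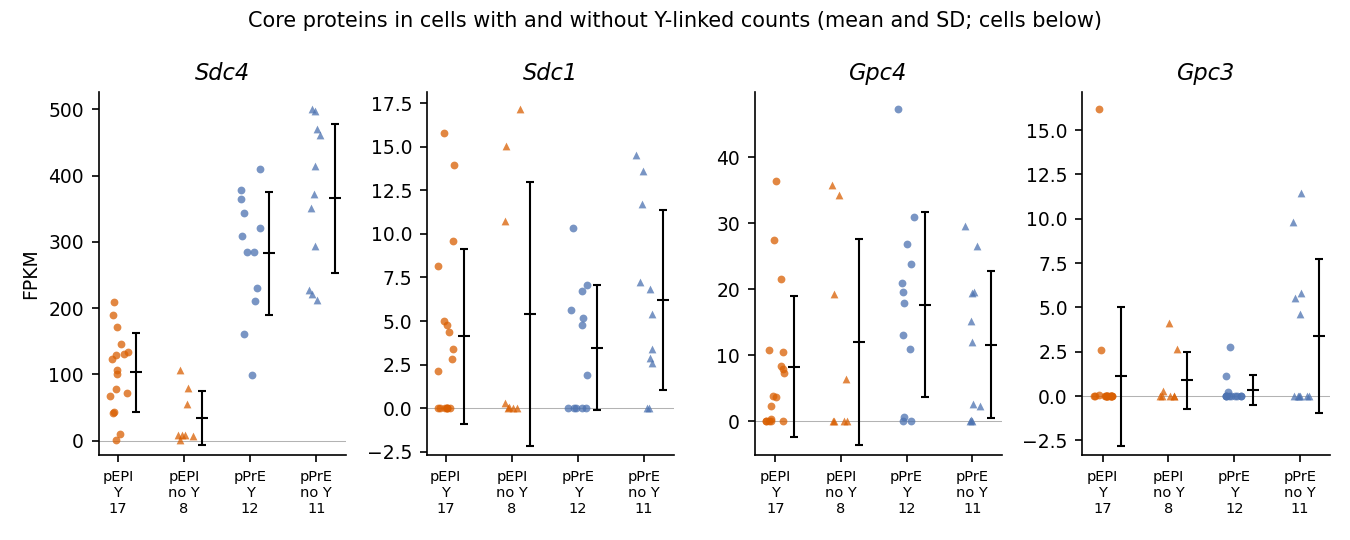
FPKM per cell of Sdc4, Gpc4, Gpc3 and Sdc1 by branch and by the presence of Y-linked counts; points are cells, horizontal marks are means and bars are SDs, which can reach below 0. Sdc4 is higher in pPrE on both sides of the split, with no overlap in the 19 cells without Y-linked counts, while Gpc4 has a log2 ratio of 1.10 in cells with and -0.05 in cells without them.

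Split by the letter of the well, which the labels do not tie to an embryo, the mean of Sdc4 was higher in pPrE for 6 of 6 letters. The log2 ratios were 2.18, 1.56, 2.40, 2.59, 0.78 and 3.51 for letters A to F, so 5 of 6 reached a fold of 2. For Gpc4 they were 1.33, 2.50, -0.17, -0.41, 1.01 and 1.07, higher in pPrE for 4 of 6 letters. The direction of Sdc4 was thus the same through the plate, and that of Gpc4 was not. Letters A, B and E held only cells with Y-linked counts and letter D only cells without. The split by letter thus overlaps that by Y-linked counts and is no separate check. Letter C held only 2 pPrE cells and letter D only 2 pEPI cells.

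Most genes that build heparan sulfate, like most genes of all, differed by less than a fold of 2 between the branches. Of 37 genes for its assembly, sulfation, sulfate supply and trimming, 31 were counted in at least 1 cell and 18 had a mean of at least 1 FPKM. Of these 18, 2 had a mean at least 2-fold higher in pPrE, 0 were at least 2-fold higher in pEPI and 16 lay between, beside 6.20% and 9.03% of all such genes. The median log2 ratio of the 18 genes was 0.05, and that of all genes was 0.00. The 6 genes never counted were Ndst4, Hs3st2, Hs3st3a1, Hs3st4, Hs3st6 and Hpse2.

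The 2 genes on the pPrE side act at opposite ends of the pathway. B4galt7 adds the first galactose of the linker that joins the chain to the core protein, and its mean was 3.02 ± 3.91 FPKM (SD, n = 25 cells) in pEPI and 7.57 ± 7.23 FPKM (SD, n = 23 cells) in pPrE, so that the log2 ratio was 1.32 (1.21 to 1.44). Hs3st1 adds the 3-O-sulfate that completes the antithrombin-binding site, and its mean was 3.52 ± 9.08 FPKM (6 of 25 cells counted) and 14.1 ± 23.6 FPKM (15 of 23 cells counted), a log2 ratio of 2.0 (1.90 to 2.11). For both genes the difference was smaller than the SD in pPrE. For Hs3st1, 1 pEPI cell held 53.8% of the pEPI counts and the pPrE cell C6 held 35.8% of the pPrE counts. In cells with Y-linked counts Hs3st1 had a log2 ratio of 0.42, short of a fold of 2, and in those without 4.61, while B4galt7 had 1.32 and 1.85. Nearest to the threshold on the pEPI side was Hs6st1, which adds 6-O-sulfate, at 2.73 FPKM in pEPI and 1.37 FPKM in pPrE, a log2 ratio of -1.0 that fell just short of a fold of 2.

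Other genes of the pathway had means that differed less between the branches. Ext2, a subunit of the polymerase, had a mean of 4.73 FPKM in pEPI and 5.26 FPKM in pPrE (log2 ratio 0.15), and its partner Ext1 had a log2 ratio of -0.42. Sulf2, which removes 6-O-sulfate outside the cell, had 5.54 FPKM and 4.97 FPKM (log2 ratio -0.16). Slc35b2, the carrier of the sulfate donor into the Golgi and the gene of this list with the highest mean, had 28.2 FPKM and 27.1 FPKM (log2 ratio -0.05). Below the minimum of 1 FPKM was Xylt1, which starts the chain on the core protein. It had counts in 0 of 25 pEPI cells and 7 of 23 pPrE cells. Its paralogue Xylt2, above that minimum, had counts in 15 pEPI and 12 pPrE cells. The means of Xylt2 were 2.94 and 1.71 FPKM (log2 ratio -0.78), in the other direction. Sulf1, which also removes 6-O-sulfate and lay below the minimum, had counts in 2 and 7 cells.

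Of the proteins that act on syndecans from either side of the membrane, several were counted in nearly every cell of both branches. Sdcbp (syntenin), which binds the syndecan tail through its PDZ domains, averaged 19.6 ± 8.25 FPKM (SD, n = 25 cells) in pEPI and 22.2 ± 8.59 FPKM (SD, n = 23 cells) in pPrE, for a log2 ratio of 0.18. Ezr, which links membrane proteins to actin, had 83.6 and 65.2 FPKM (log2 ratio -0.36), and Actn4, an actin crosslinker, had 43.7 and 29.2 FPKM (log2 ratio -0.58). Of 8 genes for such partners, 5 had a mean of at least 1 FPKM, 0 were at least 2-fold higher in pPrE and 1 (Sdcbp2) was at least 2-fold higher in pEPI, beside 6.20% and 9.03% of all such genes. Its log2 ratio of -1.16 rested on 3 pEPI and 2 pPrE cells. Prkca, the kinase bound by the tail of Sdc4, was counted in 3 pEPI cells and 1 pPrE cell. The level of Sdc4 had a Spearman correlation of 0.11 with Sdcbp and of -0.25 with Ezr over the 48 cells, so neither partner tracked it. Of 6 proteases that can shed syndecan ectodomains or activate those that do, 4 had a mean of at least 1 FPKM, 0 were at least 2-fold higher in pPrE and 1 (Mmp9) was at least 2-fold higher in pEPI, beside the same 6.20% and 9.03%. The log2 ratio of Mmp9, -1.05, came from 5 cells of each branch. Adam10 and Adam17, the proteases of this list with the highest means, had 11.8 and 6.85 FPKM in pEPI and 11.5 and 4.87 FPKM in pPrE.

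**Figure D5:**
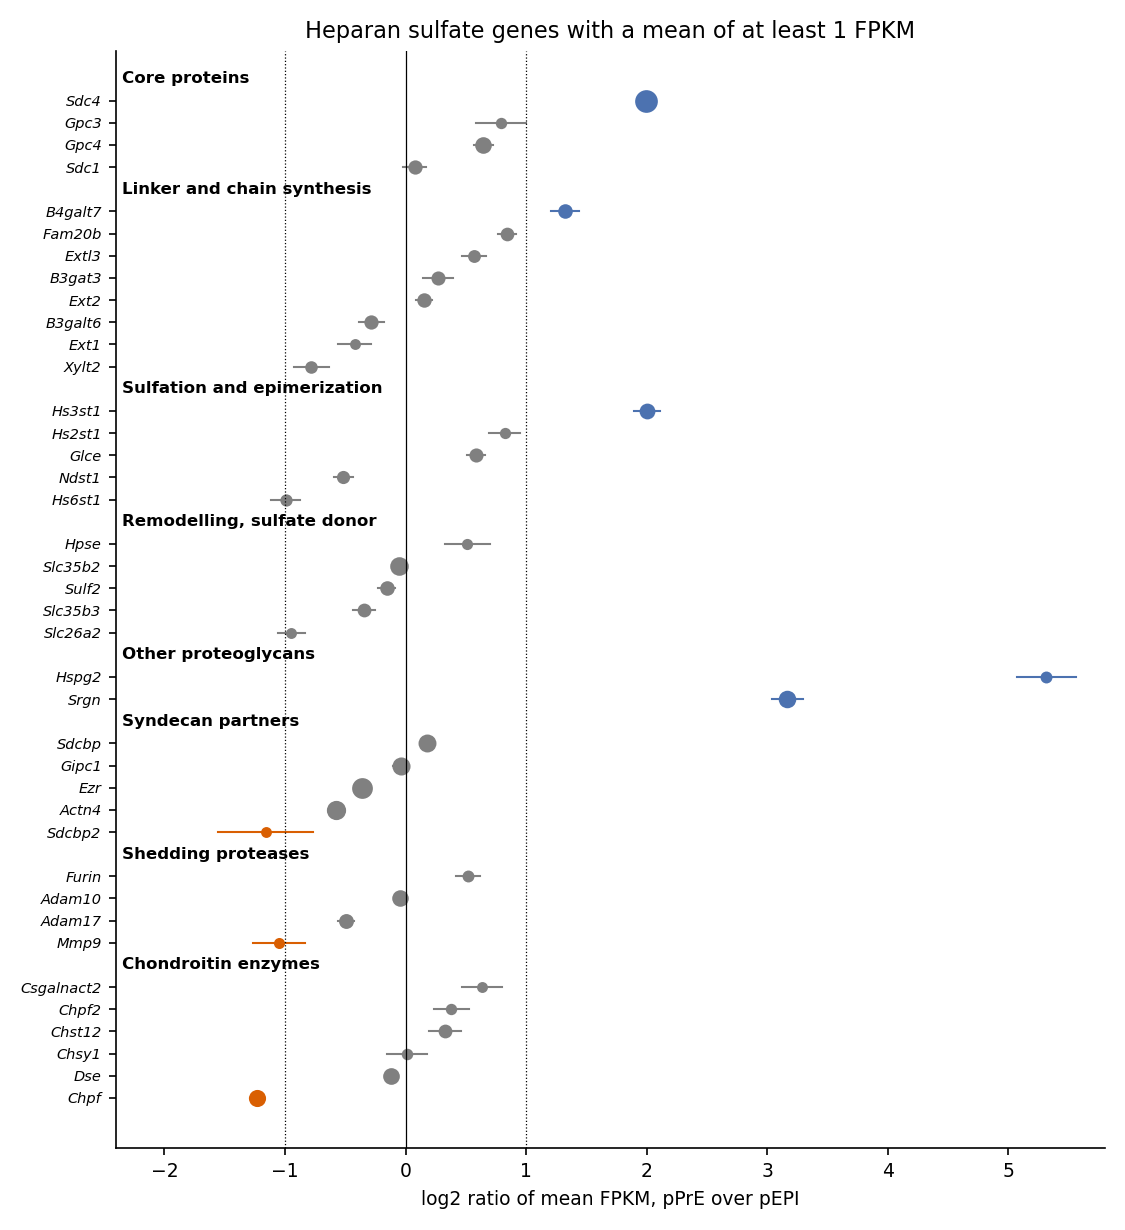
Log2 ratio of mean FPKM, pPrE over pEPI, for genes with a mean of at least 1 FPKM among core proteins, heparan sulfate enzymes, syndecan partners, shedding proteases, other proteoglycans and chondroitin enzymes; bars are 95% counting intervals, dotted lines mark a fold of 2, colours mark genes past it and larger points have higher means. Sdc4 stands at 1.99, above the other core proteins, and 16 of the 18 heparan sulfate enzyme genes lie between the dotted lines. Of all genes with that mean, 6.20% lie past the line on the pPrE side and 9.03% on the pEPI side.

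Outside these families, 6 other genes for proteoglycans were looked up (Hspg2, Agrn, Col18a1, Cd44, Tgfbr3 and Srgn). Of these, 2 had a mean of at least 1 FPKM, and both were at least 2-fold higher in pPrE, beside 6.20% of all genes with that mean. Hspg2 (perlecan), a basement membrane proteoglycan, had counts in 6 of the 25 pEPI cells and 21 of the 23 pPrE cells. It averaged 0.0919 ± 0.247 FPKM and 3.65 ± 4.05 FPKM (SD, n = 25 and 23 cells), and the log2 ratio was 5.31 (5.07 to 5.56). Srgn (serglycin), which is stored in granules, was counted in 7 and 17 cells, averaging 3.59 ± 10.5 FPKM and 32.2 ± 41.6 FPKM, and its log2 ratio was 3.17 (3.04 to 3.29). The Spearman correlation of Sdc4 with Hspg2 was 0.71 over the 48 cells but 0.05 among pEPI and 0.28 among pPrE cells, so the 2 genes shared the step between the branches and little within them. Agrn (agrin) had means of 1.03 FPKM in pEPI and 0.726 FPKM in pPrE, below the minimum over all cells, and Col18a1 and Cd44 were not counted in any cell.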

How the data were processed

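Reads of 48 Smart-seq2 cells were processed by the authors, who aligned them to mm10 and counted reads on Ensembl 87 genes; the submitters' processing notes name STAR and HTSeq. Per the paper's methods, libraries with fewer than 500000 mapped reads were left out, as were samples with uneven read coverage along genes. Outliers of a stage were also screened there by principal component analysis. The deposited values are whole-number counts without normalization, 1718970 to 7342785 per cell, and no doublet caller was run. From these counts, CPM and FPKM were computed with exon lengths of GENCODE M21 (GRCm38; 49412 genes had one, and the rest held 0.0146% of the counts) and library sizes by the median of ratios. The Ensembl 87 lengths were not used here. Genes with a mean of at least 1 FPKM over all cells were compared between the branches by a fold of 2, without a test, since the cells are 1 sample. Shares of cells have exact (Clopper-Pearson) 95% intervals, which treat cells as independent draws. Intervals of ratios and limits of 0 counts (3 counts) hold for the counting error of independent reads alone. Reads that carry no molecule tags can be copies of each other, so the error in molecules can be wider than these intervals.

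Named were the 8 genes, Gpc2 and Gpc5, genes of the lists past the fold or with the highest means, the 3 genes most like each core protein, and markers. Not every gene past the fold or with a highest mean in its list is named. Hs6st1, Ext1, Xylt1, Xylt2, Sulf1, Agrn, Col18a1, Cd44 and Tgfbr3, the 2 antisense genes and Fam25c were added after their values were seen. The members and lists were chosen with earlier results of these data known. Alternatives covered library size, summary, pseudocount, filter, fold, grouping, well letter, Y-linked counts, single cells, thinning and the detection minimum. The script that computes the ratios was checked on simulated counts of known fold, which bears on the script and not on the cells. Promoter windows came from RefSeq (GRCm38.p6). No 2 cells held the same values. Scripts ran in Python 3.11.15 with scipy 1.17.1, numpy 2.4.6 and pandas 2.3.3, and plots were drawn with matplotlib 3.10.9.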

Additional observations from a re-analysis of the deposited data

How the results depend on the processing

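Sdc4 kept its direction and a log2 ratio of at least 1 in all 18 alternatives computed for it, from 1.46 to 3.42. Gpc4 ranged from -0.05 to 2.02 (17 of 18 in the same direction), Gpc3 from -1.70 to 2.43 (14 of 17) and Sdc1 from -0.36 to 1.15 (13 of 18); a ratio of medians could not be had for Gpc3, whose medians were 0. The number of core proteins at least 2-fold higher in pPrE, 1 as reported, was 3 by medians (Sdc1, Sdc4 and Gpc4) and at a fold of 1.5 (Sdc4, Gpc3 and Gpc4). It was 2 with mean log2(FPKM + 0.1) and with only the cells with Y-linked counts (Sdc4 and Gpc4), and 2 with only those without, without letter A and without the pEPI cell holding the most counts of each gene (Sdc4 and Gpc3). The number at least 2-fold higher in pEPI, 0 as reported, was 1 in cells with Y-linked counts (Gpc3, through the pEPI cell A4). It was 2 with no minimum FPKM (Sdc2 and Gpc1). For heparan sulfate enzyme genes, 2 in pPrE as reported, the number was 4 by summed CPM, by medians, with log2(FPKM + 0.1) and without letter C, 5 in cells without Y-linked counts and at a fold of 1.5, and 10 with no minimum. In cells with Y-linked counts the number was 2, but of B4galt7 and Hs2st1, without Hs3st1. In pEPI, 0 as reported, it was 4 by medians, in cells with Y-linked counts and with no minimum, 3 at a fold of 1.5 and without the top pPrE cell, 2 when cells were grouped by the first principal component, in cells without Y-linked counts and without letter B, D or E, and 1 without letter A. The share of all genes past the fold was computed at the main setting only (6.20% in pPrE and 9.03% in pEPI). Whether the counts under the alternatives exceed the share of all genes there is thus not known. The causes were not tested. No paired analysis was possible because the labels do not give the embryo of a cell. For genes counted in few cells, a level near 0 and a gap in capture cannot be told apart. The Spearman correlation with total counts was 0.30 for Sdc1 over the 48 cells (0.46 in pPrE).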

Other observations

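Chondroitin sulfate, which syndecans can also carry, is built by enzymes that share the linker with heparan sulfate. Of 10 genes for its assembly and sulfation, 6 had a mean of at least 1 FPKM, 0 were at least 2-fold higher in pPrE and 1 was at least 2-fold higher in pEPI, beside 6.20% and 9.03% of all genes with that mean. This gene was Chpf, a subunit of the chondroitin polymerase, which had counts in 25 of 25 pEPI cells and 22 of 23 pPrE cells. Its level was 20.3 ± 7.55 FPKM (SD, n = 25 cells) in pEPI and 8.64 ± 5.67 FPKM (SD, n = 23 cells) in pPrE, for a log2 ratio of -1.24 (-1.29 to -1.18), and the pPrE cell was higher in 10.6% of pairs. The difference was larger than either SD and smaller than both added together. Chpf thus lay on the pEPI side while Sdc4, a core protein that can carry such chains, lay on the pPrE side.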
